A study of Mus musculus with 6 samples.

Results

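The major urinary protein (Mup) genes described here are 10 rows of the deposited liver count table, chosen by their symbols: Mup1, Mup2, Mup3, Mup7, Mup10, Mup11, Mup12, Mup17, Mup20 and Mup21. The table holds 56674 rows, of which 18043 passed the expression filter and were tested, and all 10 Mup members were among these. The libraries came from the liver of male C57BL/6 mice reared for 71 weeks, 3 on normal chow and 3 on chow to which polyethylene microplastic (PE-MP) had been added. Polyadenylated transcripts were captured out of total RNA, and the library kit was a directional one. The labels give no dose of PE-MP and do not say whether each library came from a mouse of its own; the spread behind every p-value may thus be technical. One protocol field names PE-MP chow for all 6 samples, and the groups follow the titles and the treatment label. The comparison asks if long intake of the plastic alters hepatic transcript levels, here those of the Mup cluster.

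Major urinary proteins are small lipocalins, barrel-shaped carriers that hepatocytes secrete into the blood and the kidney passes into urine. There they bind small volatile pheromones and release them slowly, and some also act as protein pheromones themselves. The genes form a dense cluster of near-identical copies on 1 chromosome. In the liver they are transcribed far more strongly in males than in females, because pulses of growth hormone, signalling through its receptor and the transcription factor STAT5B, keep them active. Androgens, thyroid hormone and glucocorticoids also raise them.

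How far the members can be told apart by their reads depends on their sequence, so the coding sequences are shown first. For each member, 60 bases of the coding sequence are printed from the GENCODE M21 transcripts (build GRCm38), 5′ to 3′. The window is the one with the most variable positions in an alignment of the 10 genes, 25 of 60. It covers bases 212 to 271 of the coding sequence in Mup1, Mup2, Mup7, Mup10, Mup12 and Mup17, bases 215 to 274 in Mup11, Mup20 and Mup21, and bases 224 to 283 in Mup3, counted from 1 at the start codon. Capitals mark bases that differ from Mup10. Sequences that are equal are printed once.
Mup10: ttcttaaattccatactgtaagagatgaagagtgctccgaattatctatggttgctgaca
Mup1, Mup2, Mup11, Mup12: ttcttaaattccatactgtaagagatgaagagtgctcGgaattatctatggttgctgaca
Mup7, Mup17: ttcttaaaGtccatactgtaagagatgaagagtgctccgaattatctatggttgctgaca
Mup20: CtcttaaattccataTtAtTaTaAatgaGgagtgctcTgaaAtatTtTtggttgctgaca
Mup3: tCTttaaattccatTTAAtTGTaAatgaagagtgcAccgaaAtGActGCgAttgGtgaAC
Mup21: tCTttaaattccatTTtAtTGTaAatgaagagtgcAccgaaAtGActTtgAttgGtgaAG
Even in this stretch 6 members, Mup1, Mup2, Mup7, Mup11, Mup12 and Mup17, differed from Mup10 at 1 base each. Mup20 differed at 11 bases, Mup21 at 18 and Mup3 at 20.

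Over the whole coding sequence the 10 genes fell into the same pattern. The 7 members Mup1, Mup2, Mup7, Mup10, Mup11, Mup12 and Mup17 were 98.3% to 99.6% identical to each other. Mup20, which codes for darcin, a male pheromone that attracts females, was 90.1% to 91.3% identical to those 7. Mup3 and Mup21, the last members at the other end of the cluster from Mup7, were 94.7% identical to each other, and Mup3 was only 82.1% identical to Mup7.

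**Figure D1:**
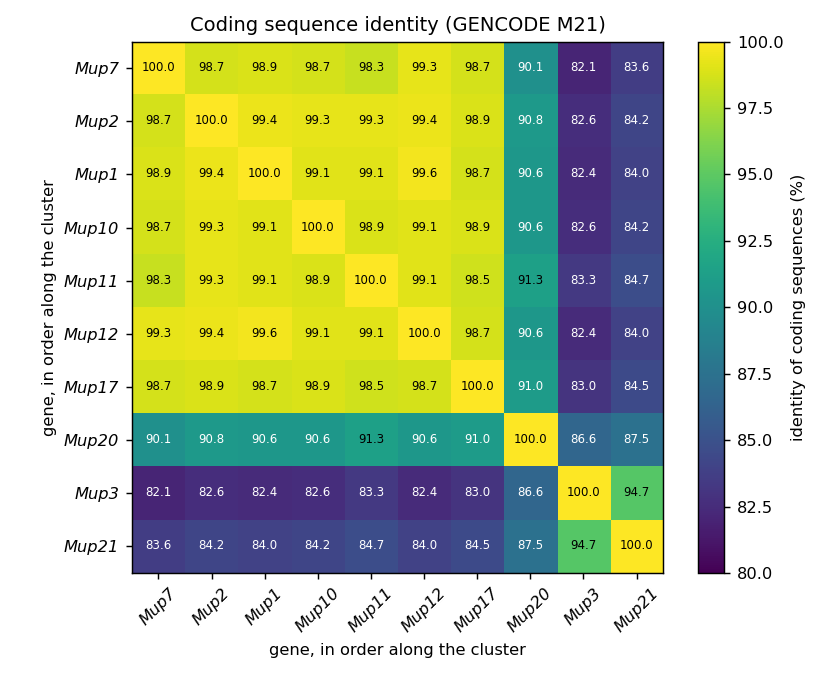
Identity of the coding sequences (percent, colour and printed value) between each pair of the 10 genes, in their order along the cluster. The block of 7 genes from Mup7 to Mup17 lies between 98.3% and 99.6%, and Mup20, Mup3 and Mup21 stand apart from it.

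These identities limit what a count can say. Of all windows of 100 bases in the transcript of Mup2, 2.66% occurred in no other Mup gene or pseudogene of the annotation. The share of such windows was 12.8% for Mup1, 12.9% for Mup7, 14.6% for Mup10, 16.5% for Mup11, 22.5% for Mup12 and 40.6% for Mup17. It was 61.2% for Mup20, 95.5% for Mup21 and 97.1% for Mup3. No source used here gives the read length, the aligner or what was done with reads that match several genes. Counts of the 7 near-identical members may therefore have been divided between genes or counted more than once, and their single values are uncertain, whereas Mup3 and Mup21, and in part Mup20, have sequence of their own.

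The 6 libraries held 68357478 to 112566641 counts. Normal chow library 2 stood apart: the 18S ribosomal RNA row took 11.2% of its counts, against 0.334% to 5.98% in the other libraries. Mitochondrially encoded genes took 14.9% to 16.4% of the counts in the normal chow group and 9.71% to 10.1% in the PE-MP group. Levels below are CPM, a gene's counts relative to the library's total in edgeR's usual unit, scaled by its TMM factors, which set the libraries on a common scale from the bulk of genes. Without these factors the median log2 fold change over all tested genes was 0.32, with them 0.018.

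Summed over the 10 members, the mean Mup level was almost the same under both chows. The 10 members summed to 20314, 37020 and 26694 CPM in normal chow libraries 1, 2 and 3, and to 28989, 26582 and 28820 CPM in PE-MP libraries 1, 2 and 3. The PE-MP libraries lay close together and inside the range of the normal chow libraries, whose highest was library 2 and lowest library 1. The means were 28009 ± 8430 and 28130 ± 1343 CPM (SD, n = 3 per chow), a log2 ratio of means of 0.0062; leaving out normal chow library 2 gave 0.25, and leaving out library 1 gave -0.18. Unscaled, the members made up 1.87%, 3.25% and 2.40% of all counts in the normal chow libraries. In the PE-MP libraries they made up 3.11%, 2.90% and 3.37%. All Mup rows together, the other 39 included, reached 3.27% to 5.36% of the counts in the first group and 4.93% to 5.85% in the second. In bulk liver RNA, fewer hepatocytes and less Mup RNA per hepatocyte cannot be told apart.

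Levels between genes were compared per kilobase of transcript, over all 6 libraries. The single values of the near-identical members are uncertain for the reasons given above, and so are their places in this order. The Mup21 transcript used has 677 bases, and those of the other members have 926 to 984. Mup7 came first at 4957 ± 1545 CPM per kilobase (SD, n = 6), followed by Mup3 at 4735 ± 867 and Mup10 at 4610 ± 612. Of these 3 genes, each differed from the next by less than the larger of the 2 SDs. Within libraries, Mup7 was above Mup3 in 4 of 6 and Mup3 was above Mup10 in 5. Mup11 followed at 3571 ± 509 CPM per kilobase, below Mup10 in all 6 libraries. Mup17 (2799 ± 539), Mup1 (2579 ± 509), Mup2 (2330 ± 394), Mup20 (2124 ± 962) and Mup12 (2070 ± 515 CPM per kilobase) formed a run in which no gene differed from the next by more than their spread. Within libraries, Mup17 was above Mup1 in 4, Mup1 above Mup2 in 5, and Mup2 above Mup20 in 5. Mup17 lay below Mup11 in all 6 libraries, and Mup20 lay above Mup12 in only 1. Mup21 was last at 278 ± 75.9 CPM per kilobase, below every other member in all 6 libraries.

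**Figure D2:**
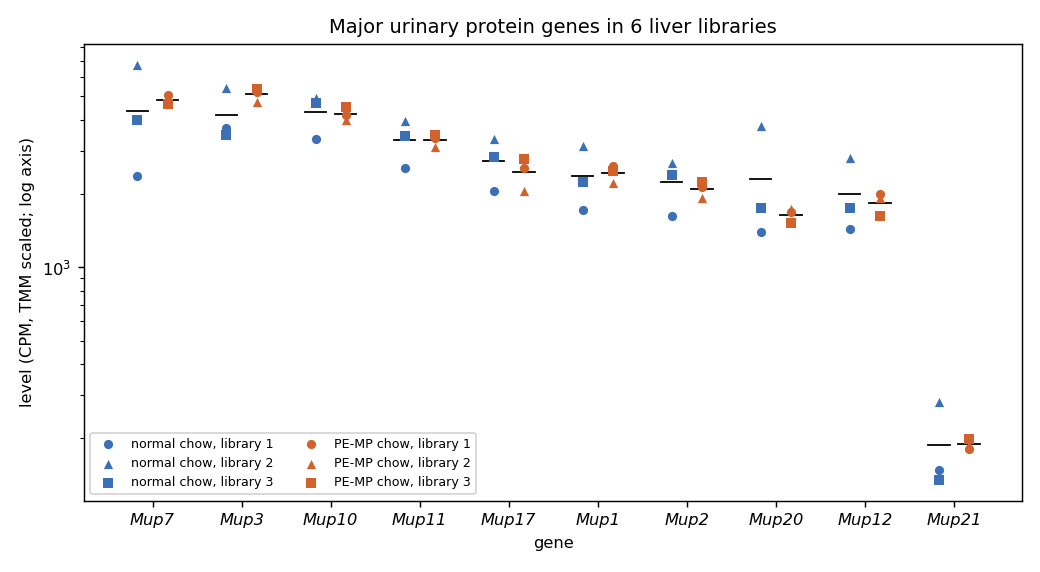
Level of each gene in each library (CPM scaled by TMM factors, log axis); colour gives the chow, the marker gives the library, and the short line is the mean of 3 libraries. In all 10 genes the highest point is normal chow library 2 and the 3 PE-MP points lie inside the normal chow range.

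Of the 10 members, 0 passed an adjusted p of 0.05 in the edgeR quasi-likelihood test, where 0.00554% of all tested genes passed (1 gene, which was no Mup row), and 0 had an unadjusted p under 0.05, where 17.9% of genes did. By DESeq2 0 members passed as well, where 1095 of 30750 genes did, and by limma-voom also 0, where 15 of 18043 did. The log2 fold change, PE-MP chow over normal chow, was above 0 for 4 members (51.7% of tested genes were) and below 0 for 6, with a median of -0.019 beside 0.018 over all tested genes. With total counts alone as the scale, 9 members were above 0 and 1 below, with a median of 0.29 beside 0.32 over all tested genes. On that scale 1 member, Mup3, had an unadjusted edgeR p under 0.05 (0.0185; adjusted p = 0.118), as did 27.4% of genes. The 95% interval of 9 members, all but Mup20, stayed between -1 and 1 log2 units, as did that of 49.7% of tested genes. The chow groups overlapped for every member, while they did not overlap for 26% of tested genes (14.2% higher and 11.8% lower under PE-MP chow).

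Mup7, one of the near-identical members, had the widest range, 2.86-fold from its lowest to its highest library. Its level was 2353, 6738 and 3984 CPM in normal chow libraries 1, 2 and 3 and 5080, 4759 and 4655 CPM in PE-MP libraries 1, 2 and 3. The PE-MP values lay close together and between the upper pair of normal chow values, while normal chow library 1 was the lowest of all. The log2 fold change of Mup7 was 0.15 ± 0.35 (SE), with a 95% interval of -0.70 to 0.998 (edgeR adjusted p = 0.853).

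The other members of this block were also lowest in normal chow library 1 and highest in library 2, over narrower ranges than Mup7. Mup10 stood at 3344, 4905 and 4718 CPM under normal chow and at 4178, 3986 and 4508 CPM under PE-MP chow. Its log2 fold change was -0.033 ± 0.18 (SE), with an interval of -0.45 to 0.38 (edgeR adjusted p = 0.936). Normal chow libraries 2 and 3 were both above all PE-MP libraries and normal chow library 1 was below them. Mup17, the member of the block with the most sequence of its own, stood at 2041, 3335 and 2819 CPM under normal chow and at 2552, 2041 and 2780 CPM under PE-MP chow. The Mup17 fold change was -0.15 ± 0.21 on the log2 scale (SE; edgeR adjusted p = 0.737), and the lowest values of both groups were nearly the same. For Mup1, Mup2, Mup11 and Mup12 the log2 fold changes lay between -0.12 (Mup12) and 0.042 (Mup1), with edgeR adjusted p of 0.835 to 0.991. Since reads may have moved between these 7 genes in the counting, their sum is given too, although Mup genes outside the 10 are as similar (Mup18 differs from Mup11 at 1 coding base) and may share reads with them: 15055, 27560 and 21333 CPM under normal chow and 21896, 19931 and 21736 CPM under PE-MP chow. The means of that sum were 21316 ± 6253 and 21187 ± 1091 CPM (SD, n = 3 per chow), so the difference was far smaller than the spread between libraries.

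Mup20, the darcin gene, had the largest difference in value among the members. It stood at 1388, 3772 and 1738 CPM in normal chow libraries 1, 2 and 3 and at 1686, 1726 and 1515 CPM in PE-MP libraries 1, 2 and 3. Normal chow library 2 alone was high, at more than any other library, and the other 5 lay between 1388 and 1738 CPM. The means were 2299 ± 1287 and 1642 ± 112 CPM (SD, n = 3 per chow). The log2 fold change was -0.49 ± 0.37 (SE), with an interval of -1.37 to 0.40 (edgeR adjusted p = 0.520). It was 0.067 when normal chow library 2 was left out (edgeR adjusted p = 0.784), so the lower mean under PE-MP chow rested on that library.

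Mup3 leaned the other way. This gene, whose sequence is nearly free of shared stretches, stood at 3723, 5408 and 3488 CPM under normal chow and at 5226, 4739 and 5371 CPM under PE-MP chow. All PE-MP libraries were above normal chow libraries 1 and 3 and below normal chow library 2. The log2 fold change was 0.28 ± 0.19 (SE), with an interval of -0.18 to 0.74 (edgeR adjusted p = 0.476, and the smallest unadjusted p of the members, 0.189). With normal chow library 2 left out it was 0.50 (edgeR adjusted p = 0.0542), which also missed the threshold.

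Mup21, the least abundant member and the closest relative of Mup3, stood at 148, 280 and 135 CPM under normal chow and at 181, 187 and 198 CPM under PE-MP chow. Again the PE-MP values lay above normal chow libraries 1 and 3 and below library 2. Its log2 fold change was 0.0055 ± 0.28 (SE; edgeR adjusted p = 0.992), and 0.41 without normal chow library 2 (edgeR adjusted p = 0.0663).

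**Figure D3:**
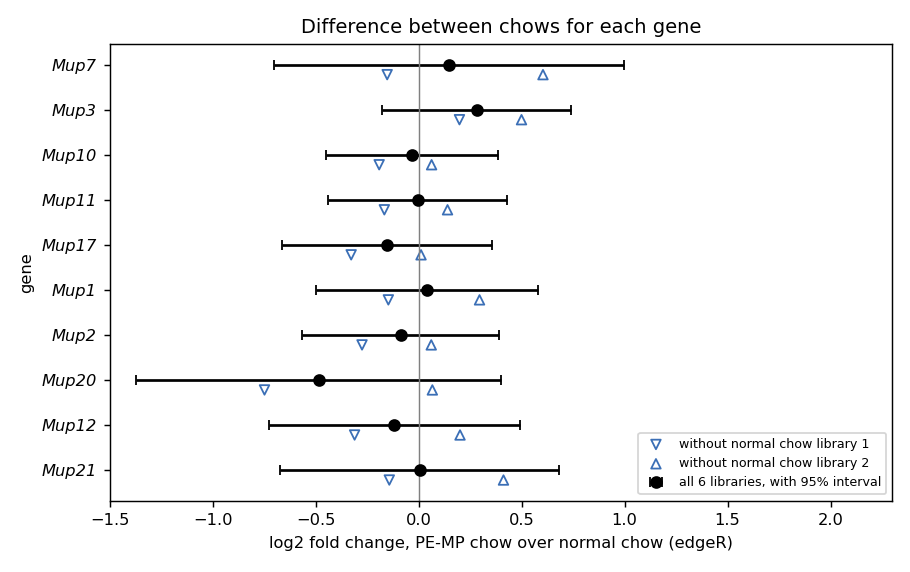
Log2 fold change of each gene, PE-MP chow over normal chow, with its 95% interval (black), and the same value without normal chow library 1 (triangles pointing down) or library 2 (triangles pointing up). Every black interval spans 0, and leaving out library 2 moves all 10 values above 0.

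The spread of these genes was larger within normal chow than within PE-MP chow. Normal chow library 2 was the highest of the 6 libraries for all 10 members, against 17.3% of tested genes, and normal chow library 1 was the lowest for 8, against 22.2%; for Mup3 and Mup21 the lowest was normal chow library 3. On the TMM scale all 3 PE-MP libraries lay within the range of the normal chow libraries for 10 of 10 members, against 21.9% of tested genes. This depends on the scale: unscaled, the members' summed share was 3.37% in PE-MP library 3, above the highest normal chow value of 3.25%. The SD was larger under normal chow for 10 of 10, against 66.2% of all tested genes and 78.3% of the 1094 genes above 100 CPM. These counts are not 10 independent observations, since the members share libraries and in part reads. Mup3 and Mup21 have sequence of their own, and Mup20 does in part. The coefficient of variation among normal chow libraries was 56.0% for Mup20, 24.9% for Mup3 and 43.1% for Mup21. Among PE-MP libraries it was 6.82%, 6.48% and 4.57% for the same genes. Normal chow libraries 1 and 3 lay closer together than to library 2. They held 1388 and 1738 CPM for Mup20, 3723 and 3488 for Mup3, and 148 and 135 for Mup21. With normal chow library 2 left out, all 10 log2 fold changes were above 0 with a median of 0.17, and 3 members (Mup3, Mup7 and Mup21) had an unadjusted edgeR p under 0.05, where 28.4% of all genes tested did; 0 passed after adjustment, where 5.65% did. Without normal chow library 1, 9 of 10 were below 0 with a median of -0.18.

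The make-up of the Mup counts also shifted between libraries. Mup20 made up 6.83%, 10.2% and 6.51% of the members' counts in the 3 libraries of the normal chow group, and 5.82%, 6.49% and 5.26% in the 3 of the PE-MP group. Its share was highest in normal chow library 2, and the PE-MP libraries lay below all normal chow libraries, the closest pair being 6.49% and 6.51%. Mup3 made up 18.3%, 14.6% and 13.1% of them in the first group and a steady 18.0%, 17.8% and 18.6% in the second. Mup7 made up 11.6%, 18.2% and 14.9% in the first group and 17.5%, 17.9% and 16.2% in the second. The ratio of Mup20 to Mup3 counts was 0.373, 0.697 and 0.498 in the normal chow libraries and 0.323, 0.364 and 0.282 in the PE-MP libraries. That ratio was lower in all 3 PE-MP libraries, by a small margin against normal chow library 1. The 3 shares and the ratio were chosen after the values were seen, and no test was made of them.

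**Figure D4:**
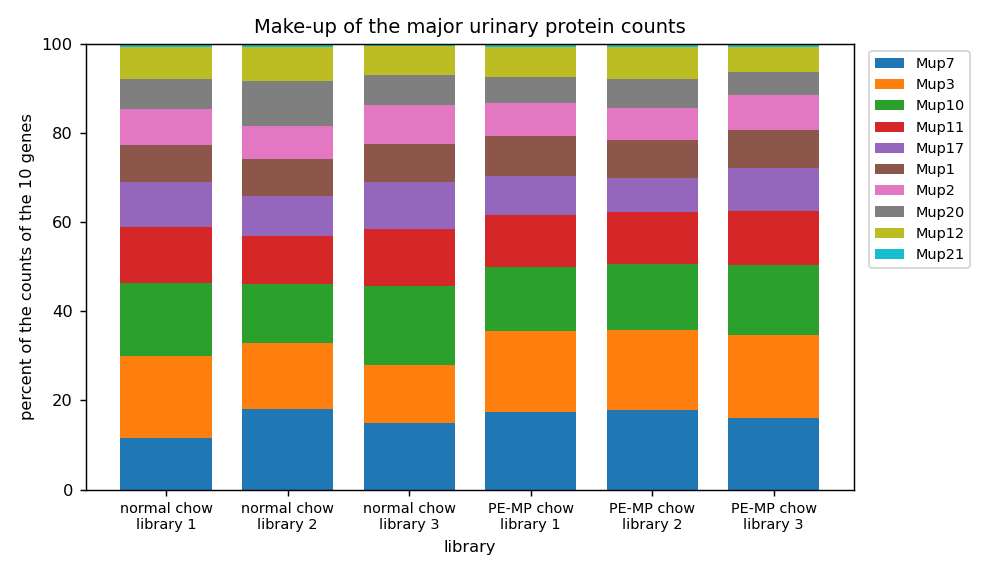
Share of each gene in the summed counts of the 10 genes (percent), stacked for each library. The Mup20 segment is largest in normal chow library 2 (10.2%), and the Mup7 segment is smallest in normal chow library 1 (11.6%).

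The table holds 39 further Mup rows, 12 genes and 27 pseudogenes, of which 27 rows were tested. Here 0 passed the adjusted edgeR threshold and 1 had an unadjusted p under 0.05, against 17.9% of all tested genes, with a median log2 fold change of 0.018. The 9 abundant genes among them had log2 fold changes of -0.10 to 0.13. Normal chow library 2 was their highest library for 6 and normal chow library 1 their lowest for 8. Mup13 and Mup18 were highest, and Mup22 lowest, in PE-MP library 3, outside the normal chow range. Of the 9, only Mup18 had the larger SD under PE-MP chow (279 CPM, against 178 CPM under normal chow). Mup4 and Mup5, which are known from secretory glands outside the liver, stood at 0.169 to 0.443 and at 0.757 to 2.83 CPM, near the bottom of the cluster. The row with an unadjusted p under 0.05 was the pseudogene Mup-ps6, with 11, 11 and 11 counts under normal chow and 38, 27 and 42 under PE-MP chow (log2 fold change 1.33 ± 0.39 SE; edgeR adjusted p = 0.177). Mup-ps19, a pseudogene named after its values were seen, ran over a 14.8-fold range: 22.7, 334 and 115 CPM under normal chow and 38.5, 44.8 and 137 CPM under PE-MP chow. Its highest library was the one with the highest Mup20, but PE-MP library 3, second for Mup-ps19, had a low Mup20 value.

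Genes of the growth hormone and STAT5 axis, its inhibitors and outputs included, were measured in the same libraries. Of 16 listed and tested, 2 had an unadjusted edgeR p under 0.05 upwards (9.1% of tested genes did) and 2 downwards (8.82% did), and 0 passed after adjustment; the median log2 fold change was 0.034. Ghr, the growth hormone receptor, stood at 231, 370 and 319 CPM under normal chow and at 275, 301 and 337 CPM under PE-MP chow (log2 fold change -0.011 ± 0.19 SE; edgeR adjusted p = 0.982). As for the Mup members other than Mup3 and Mup21, its lowest value was in normal chow library 1 and its highest in library 2. Of all tested genes, 22.2% were lowest in the first and 17.3% highest in the second. For Stat5b the log2 fold change was -0.098 ± 0.17 (SE; edgeR adjusted p = 0.789). For Stat5a, its close relative, it was -0.36 ± 0.15 (SE; edgeR adjusted p = 0.273), with all PE-MP libraries below all normal chow libraries.

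Larger differences in value, none of which passed, appeared among genes downstream of STAT5. Cux2, a repressor that marks female liver, stood at 0.200, 0.216 and 0.306 CPM under normal chow and at 0.719, 1.40 and 4.64 CPM under PE-MP chow (log2 fold change 3.21 ± 0.74 SE; edgeR adjusted p = 0.139). Its groups did not overlap, though it remained at low levels. Bcl6, a repressor that is higher in male liver and that STAT5 holds down, stood at 2.36, 4.49 and 0.217 CPM under normal chow and at 11.2, 46.2 and 17.3 CPM under PE-MP chow (log2 fold change 3.41 ± 1.09 SE; edgeR adjusted p = 0.206). Here too all PE-MP libraries were above all normal chow libraries. Cish, a feedback inhibitor that STAT5 induces, stood at 3.27, 2.13 and 12.8 CPM under normal chow and at 0.857, 0.952 and 2.50 CPM under PE-MP chow (log2 fold change -2.08 ± 0.80 SE; edgeR adjusted p = 0.255). When normal chow library 2 was left out, 1 of the 16 genes passed, Igfbp3, a carrier of insulin-like growth factors, with a log2 fold change below 0. In that fit 5.65% of all genes tested passed, a share close to that of the list.

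**Figure D5:**
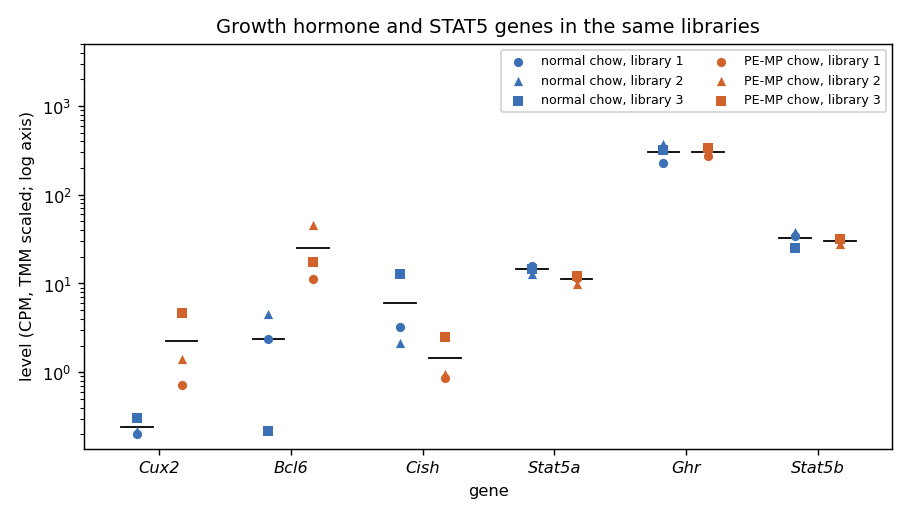
Levels of 6 genes of the growth hormone and STAT5 list in each library (CPM scaled by TMM factors, log axis), with colours, markers and mean lines for chow and library. Cux2 and Bcl6 are higher in all 3 PE-MP libraries, while Ghr and Stat5b overlap between the chows.

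Other genes with a male bias in liver were read beside the Mup genes. Of 24 tested male-biased genes, 18 had a log2 fold change below 0 (51.7% of all tested genes were above 0), the median was -0.37, and 6 had an unadjusted edgeR p under 0.05 downwards against 8.82% of tested genes. None of the 24 passed after adjustment on all libraries; without normal chow library 2, Cyp4a12a, Cyp4a12b and Selenbp2 did, in a fit where 5.65% of all genes passed. Cyp4a12a, a fatty acid hydroxylase, stood at 474, 338 and 505 CPM under normal chow and at 134, 121 and 209 CPM under PE-MP chow (log2 fold change -1.51 ± 0.26 SE; edgeR adjusted p = 0.124). Its normal chow library 2 was the lowest of its group, the reverse of the Mup members. Selenbp2, a selenium-binding protein, had a mean of 52.7 ± 3.73 CPM under normal chow and 26.9 ± 2.99 CPM under PE-MP chow (SD, n = 3 per chow). Cyp2u1 and Cyp4a12b completed the 4 smallest p of the list, with log2 fold changes of -0.45 and -1.56. Of 22 tested female-biased genes, 9 had a log2 fold change above 0 and 13 below, with a median of -0.079. An unadjusted edgeR p under 0.05 upwards was found for 3, against 9.1% of tested genes, and downwards for 0. The 3 were Cux2, Prom1 and A1bg, the last at 0 to 0.0790 CPM under normal chow. Without normal chow library 2 the median was -0.24. In that fit 2 had such a p upwards and 1 downwards, where 28.4% of all genes tested did in either direction. Of the 22 female-biased genes, 0 passed after adjustment, with or without normal chow library 2.

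Transcription factors that hepatocytes use at Mup and other liver genes were mostly even between the chows. Of 22 tested, 3 had an unadjusted edgeR p under 0.05 upwards (9.1% of tested genes did) and 1 downwards (8.82% did), 0 passed, and the median log2 fold change was 0.019. For Hnf4a, a nuclear receptor that sets hepatocyte identity, the log2 fold change was 0.0077 ± 0.14 (SE; edgeR adjusted p = 0.982). For Zhx2, a zinc finger and homeobox factor that acts on several liver genes, it was 0.0072 ± 0.13 (SE; edgeR adjusted p = 0.982). Foxa1, a pioneer factor, had means of 0.546 ± 0.298 CPM under normal chow and 5.36 ± 2.68 CPM under PE-MP chow (SD, n = 3 per chow; edgeR adjusted p = 0.124). The thyroid hormone receptor gene Thrb had means of 1.34 ± 0.890 and 4.57 ± 0.901 CPM (SD, n = 3 per chow; edgeR adjusted p = 0.155). When normal chow library 2 was left out 3 genes of the list passed, Thrb and Rxra among them, in the fit where 5.65% of all genes did.

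Lipocalins outside the cluster and other abundant secreted proteins were set beside the Mup members. Of 10 tested lipocalins 1 was above 0 (51.7% of tested genes were) and 9 were below. An unadjusted edgeR p under 0.05 downwards was found for 4 (Orm1, Orm2, C8g and Obp2a), against 8.82% of tested genes, and the median log2 fold change was -0.51; 0 passed. Orm1, an acute phase carrier of drugs, stood at 366, 372 and 383 CPM under normal chow and at 330, 205 and 200 CPM under PE-MP chow (log2 fold change -0.61 ± 0.21 SE; edgeR adjusted p = 0.215). Of 27 abundant plasma protein genes, 4 had an unadjusted p under 0.05 downwards (the apolipoprotein genes Apoc1, Apoc3, Apoe and Apoa2; 8.82% of tested genes did), 0 upwards and 0 passed, with a median of -0.096. When normal chow library 2 was left out, 1 lipocalin (C8g) and 1 plasma protein gene (Apoc3) passed, where 5.65% of all genes did. Albumin (Alb) was even (log2 fold change 0.016 ± 0.14 SE; edgeR adjusted p = 0.961). The ratio of the members' summed counts to Alb counts was 0.347, 0.778 and 0.500 under normal chow and 0.547, 0.477 and 0.548 under PE-MP chow, and albumin was lowest in normal chow library 2, where the Mup genes were highest.

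Promoter sequences are shown for Mup10, from the near-identical block, and for Mup3, the most divergent abundant member. They come from RefSeq (build GRCm38.p6; the files use GRCm39) and span 300 bases that end 50 bases after the annotated start, both on the minus strand and printed 5′ to 3′. The table held promoters for 7 of the 10 members. The Mup10 window is chr4:60582106-60582405 and the Mup3 window chr4:62087268-62087567. Capitals mark the motifs found.
Mup10: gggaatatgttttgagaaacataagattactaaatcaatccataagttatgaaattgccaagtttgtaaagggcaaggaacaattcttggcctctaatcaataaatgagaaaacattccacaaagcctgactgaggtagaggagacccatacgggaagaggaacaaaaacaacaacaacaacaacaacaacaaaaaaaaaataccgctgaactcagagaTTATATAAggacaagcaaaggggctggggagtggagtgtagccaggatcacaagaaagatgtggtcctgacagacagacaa
Mup3: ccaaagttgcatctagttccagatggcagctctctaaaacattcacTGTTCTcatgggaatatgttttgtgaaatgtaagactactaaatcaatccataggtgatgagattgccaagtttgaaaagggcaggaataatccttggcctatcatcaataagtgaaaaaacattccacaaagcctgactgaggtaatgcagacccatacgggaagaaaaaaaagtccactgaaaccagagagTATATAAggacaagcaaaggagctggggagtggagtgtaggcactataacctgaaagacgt
Motifs were searched on both strands. The STAT5 motif TTCNNNGAA was in 0 of the 7 windows, and in 8.30% of all 32851 promoters of the table. The usual box upstream of a start, TATAAA, was in 0 of 7, and in 13.6% of all. The hexamer TGTTCT, 1 side of a glucocorticoid response element, was in 2 of 7, Mup3 and Mup21, and in 19.0% of all. The run TATATAA, which was added after the sequences were seen, was in 6 of 7, all but Mup7, and in 3.24% of all promoters. In Mup10, copies of that run on both strands overlap. The annotated starts are not aligned: the first base of that run lay at -30 from the start in Mup10 and at -11 in Mup3, and the Mup7 window ends upstream of where the others hold it. Over the aligned 260 bases the Mup10 and Mup3 promoters were 76.9% identical, and Mup3 and Mup21 were 92.9% identical over 297.

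Markers of liver cell types were summed to see what else the libraries held. All 6 hepatocyte markers were present, at a summed 60784 to 74523 CPM under normal chow and 66158 to 72209 CPM under PE-MP chow. The lowest sum was in normal chow library 2, the library with the highest Mup level. Alb made up most of that sum (47560 of 60784 CPM), so it largely repeats the albumin value. The 6 B and plasma cell markers summed to 19.3 to 58.6 CPM under normal chow and 6.43 to 10.3 CPM under PE-MP chow, and the 6 adipocyte markers to 16.4 to 69.5 and 6.13 to 16.1 CPM, with Lep at 0 in every library. Kupffer cell markers summed to 81.0 to 107 and 109 to 188 CPM, sinusoidal endothelial markers to 84.0 to 105 and 112 to 158 CPM, stellate cell markers to 276 to 292 and 144 to 285 CPM, and cholangiocyte markers to 12.4 to 27.1 and 19.5 to 24.5 CPM. T and NK cell markers summed to 4.37 to 5.64 and 1.76 to 3.68 CPM, neutrophil markers to 0.731 to 1.03 and 2.03 to 2.25 CPM with Ly6g at 0, and erythroid markers to 267 to 527 and 459 to 615 CPM. The part of these cells, and of the 18S share of normal chow library 2, in the Mup values was not tested.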

How the data were processed

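RNA sequencing of 6 mouse liver libraries was used, 3 per chow, grouped by their titles. The authors deposited raw read counts, all of them whole numbers, with totals that differ between libraries, in a table of all libraries that was used and in files per library that hold the same values. The build GRCm39 and the tool bcl2fastq come from the submitters' processing notes. Of the aligner, the counter, the annotation and the strand setting, each is not given in the sources used here. Counts were tested with edgeR 4.0.16 (R 4.3.3; TMM, default filter, robust quasi-likelihood F test, two-sided), with p-values adjusted over 18043 genes by the Benjamini-Hochberg method and a threshold of 0.05. Each fold change is PE-MP chow over normal chow. The script was tested on simulated data. Sequences were compared with Biopython 1.88 and MAFFT 7.526 on the principal GENCODE M21 transcript of each gene. DESeq2 1.42.0, limma 3.58.1 (voom), other scalings and filters, each library left out and the replicate number as a block were tried.

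Members and gene lists were chosen with earlier results of these data known. Named were all members, the up to 4 genes of each list with the smallest p, 5 genes fixed by name (Ghr, Stat5b, Hnf4a, Zhx2 and Alb), the 3 nearest protein-coding genes on each side of the cluster, and the 5 genes most and 5 least like the summed Mup level; Mup-ps19, Igfbp3, Rxra and the ratio of Mup20 to Mup3 were named after their values were seen. Same-numbered libraries of the chows had deviations from their group means that correlated at 0.0619, 0.0946 and 0.197 over genes, so the numbers were not taken to pair them. Of the genes this rule names, 2 are not reported here.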

Additional observations from a re-analysis of the deposited data

How the results depend on the processing

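The count of Mup members past the threshold was 0 under every alternative run: RLE, upper-quartile and no factors, scalings without Mup rows or genes over 1% of a library, mitochondrial rows left out, DESeq2, limma-voom, both other filters, an adjusted p of 0.1, each library left out, the replicate block and, chosen after seeing the data, the 18S row left out. The number of all genes past it was 1 by the edgeR test of all libraries. It was 3 with RLE factors, 10 with total counts alone, 1095 by DESeq2, 15 by limma-voom, 23 with no filter, 22 with the stricter one, 53 at an adjusted p of 0.1 and 0 with the replicate block, and 1 to 1075 when a library was left out, the highest without normal chow library 2.

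The replicate block changed no call of a Mup member. Log2 fold changes near 0 changed sign. With total counts alone they were 0.22 for Mup2, 0.28 for Mup10, 0.30 for Mup11, 0.19 for Mup12 and 0.16 for Mup17, where the median of all genes was 0.32. For Mup11 they were 0.022 with upper-quartile factors, 0.0055 without genes over 1% in the scaling, 0.018 by limma-voom, 0.0065 with no filter, 0.014 with the stricter filter, 0.018 with the replicate block and 0.0056 without the 18S row. For Mup21 they were -0.012 with RLE factors and -0.0043 by DESeq2. With each library left out they ran from -0.15 to 0.30 for Mup1, -0.27 to 0.061 for Mup2, -0.15 to 0.60 for Mup7, -0.19 to 0.063 for Mup10, -0.17 to 0.14 for Mup11, -0.31 to 0.20 for Mup12, -0.33 to 0.012 for Mup17, -0.75 to 0.067 for Mup20 and -0.19 to 0.41 for Mup21. Mup3 was the 1 member above 0 in all of these, at 0.16 to 0.50 with a library left out. Counts of the members are so high that depth does not limit them; the spread between libraries does. In the pairing check 2 of 3 normal chow libraries correlated best with the PE-MP library of their own number.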

Other observations

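The genes next to the Mup cluster were read from the same fit, with neighbours taken from RefSeq (GRCm38.p6). On the side of Mup7 lie Inip (log2 fold change -0.019), Snx30 (0.12) and Slc46a2, which was not tested at 0 to 0.0317 CPM. On the side of Mup21, Zfp37, a zinc finger gene, stood at 1.06, 4.68 and 4.75 CPM under normal chow and at 0.338, 0.305 and 0.493 CPM under PE-MP chow (log2 fold change -3.20 ± 0.61 SE; edgeR adjusted p = 0.128, and 0.0630 without normal chow library 2). The groups did not overlap for Zfp37, nor for Snx30 and Fkbp15, both higher under PE-MP chow in all 3 libraries. Groups did not overlap for 26% of all tested genes. Beyond it, Slc31a2 had a log2 fold change of 0.17 and Fkbp15 one of 0.28, with edgeR adjusted p of 0.584 and 0.327.

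Among 17173 tested genes outside the cluster, those whose log2 CPM followed the summed Mup level most closely over the 6 libraries were Tank (Pearson r 0.997), Thoc2l (0.996), Pfdn4 (0.993), Xk (0.993) and Tgs1 (0.993). The most opposite were Vars (-0.996), Sfxn5 (-0.991), Qpctl (-0.986), Gm5850 (-0.984) and Pex6 (-0.983). With 6 libraries and that many genes, such values are a description. Thoc2l, the widest of the first 5, stood at 8.77, 25.8 and 13.5 CPM under normal chow and at 16.7, 14.5 and 16.8 CPM under PE-MP chow.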
